A study of Mus musculus with 14 samples.

Results

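Ltf, Lcn2, Camp, Ngp, Cd177, Chi3l3, Hp, Fpr1, Fpr2 and Padi4 encode proteins that a neutrophil makes late in its development, and they were chosen by symbol for that role, as 10 genes of the 13406 in the table of doxycycline libraries. The symbol Chi3l3 is the older name of Chil3. In the table of transduced libraries 8 of the 10 had a row among 14563 genes, and Fpr1 and Fpr2 had none. RNA was sequenced from primary acute myeloid leukaemias of C57/BL6 mice, raised from foetal liver cells that carried 2 retroviral vectors and collected from the spleens of sick animals. One vector held MLL-AF9, a fusion oncogene, behind a Tet-Off promoter with a dsRED reporter, and the other held the oncogene NRASG12D with the Tet-Off activator, so every library came from cells with both oncogenes. The doxycycline set had 4 libraries of cells kept for 4 days in vitro with doxycycline, which shuts the Tet-Off promoter, and 4 libraries of untreated cells with the same 4 pair labels. The labels of pairs 1 to 3 begin with TRIMA2 and that of pair 4 with TRIMA1, and their meaning is not stated. Sample titles of the doxycycline libraries of pairs 1, 2 and 4 end in R, also unexplained. Those of pair 3 and of the untreated libraries do not. The transduced set had 3 libraries of cells given an Id2-GFP retrovirus and 3 of cells given a control-GFP virus, sorted for GFP 2 days later, with MLL-AF9 left on. Id2 is an inhibitor of basic helix-loop-helix transcription factors.

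Neutrophils fill their granules in sequence. Primary granule proteins such as myeloperoxidase and neutrophil elastase are made in the promyelocyte, the specific granule proteins lactoferrin, lipocalin 2, cathelicidin and the neutrophilic granule protein in the myelocyte and metamyelocyte, and chemoattractant receptors and several surface proteins later still. The transcription factor C/EBPε is required for specific granules, and MLL-AF9 holds myeloid cells at an immature stage in which such genes are usually low.

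Of the 10 genes, 3 lie on chromosome 9 of GRCm38 and 2 lie side by side on chromosome 17, per the GENCODE M21 annotation. Camp (109847379 to 109849617), Ngp (110419747 to 110423012) and Ltf (111019271 to 111042767) spanned 1195.4 kb of chromosome 9 that held 31 protein-coding genes. Fpr1 (17876471 to 17883940) and Fpr2 (17887824 to 17893952) spanned 17.5 kb of chromosome 17. The annotated gene Fpr3 overlaps Fpr2 on the same strand, so reads in the overlap may not all have been counted for Fpr2. Lcn2 lies on chromosome 2 (32384633 to 32388252), Chi3l3 on chromosome 3 (106147554 to 106167564), Padi4 on chromosome 4 (140745865 to 140774236), Cd177 on chromosome 7 (24743983 to 24760311) and Hp on chromosome 8 (109575128 to 109579172).

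The sequences upstream of the 4 specific granule protein genes and of Fpr1, the gene with the largest change, show how often the letters of 2 myeloid factors' motifs occur there. Each is the 250 bases before the RefSeq start of the gene on GRCm38.p6, 5′ to 3′ on the gene's strand, with matches in capitals. The motifs searched on both strands were TTNNGNAA for C/EBP factors and GAGGAA for PU.1, and the 2 do not share a match here. The Ltf sequence is chr9:111019042-111019291 on the plus strand, Ngp is chr9:110419558-110419807 on the plus strand, Camp is chr9:109849457-109849706 on the minus strand, Lcn2 is chr2:32387740-32387989 on the minus strand and Fpr1 is chr17:17883940-17884189 on the minus strand.
Ltf: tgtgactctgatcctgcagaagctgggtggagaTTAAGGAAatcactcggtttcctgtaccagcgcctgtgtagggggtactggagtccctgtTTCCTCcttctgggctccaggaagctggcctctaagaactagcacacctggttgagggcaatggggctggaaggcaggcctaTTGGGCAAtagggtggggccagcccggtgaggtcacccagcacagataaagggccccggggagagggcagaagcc
Lcn2: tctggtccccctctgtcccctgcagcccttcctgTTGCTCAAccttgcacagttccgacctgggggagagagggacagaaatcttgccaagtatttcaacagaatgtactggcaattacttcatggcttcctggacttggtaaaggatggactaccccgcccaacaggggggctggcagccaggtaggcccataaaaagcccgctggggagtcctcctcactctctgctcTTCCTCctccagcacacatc
Ngp: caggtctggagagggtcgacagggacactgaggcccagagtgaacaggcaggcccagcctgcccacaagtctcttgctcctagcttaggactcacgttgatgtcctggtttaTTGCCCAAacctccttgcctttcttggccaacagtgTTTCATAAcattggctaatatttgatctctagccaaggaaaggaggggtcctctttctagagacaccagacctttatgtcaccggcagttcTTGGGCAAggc
Camp: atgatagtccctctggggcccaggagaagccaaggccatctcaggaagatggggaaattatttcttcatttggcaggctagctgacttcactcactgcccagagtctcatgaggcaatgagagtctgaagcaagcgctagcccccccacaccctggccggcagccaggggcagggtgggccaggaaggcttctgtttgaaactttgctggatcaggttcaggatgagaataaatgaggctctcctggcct
Fpr1: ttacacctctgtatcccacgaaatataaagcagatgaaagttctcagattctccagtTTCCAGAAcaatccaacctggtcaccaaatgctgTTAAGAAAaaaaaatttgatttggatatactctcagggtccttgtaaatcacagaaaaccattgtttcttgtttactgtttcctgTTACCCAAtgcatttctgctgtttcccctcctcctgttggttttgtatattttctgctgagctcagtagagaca

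RefSeq windows were found for 9 of the 10 genes, Hp being the exception. The C/EBP letters were in 7 of those 9 and in 36.8% of all 32851 windows of 250 bases. Ltf had 2 matches, TTAAGGAA from base 217 before its start and TTGGGCAA from base 75, Lcn2 had 1, Ngp had 3 and Fpr1 had 3, and Cd177, Chi3l3 and Fpr2 also had them. Camp and Padi4 had none. The PU.1 letters were in 4 of the 9 windows (Ltf, Lcn2, Cd177 and Fpr2) and in 23.3% of all windows. A match is a run of letters, not a measured binding site, and no binding was measured.

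Each library of the doxycycline set had 17922644 to 25959766 reads on tabled genes, and each of the transduced set 14051150 to 14948487. Mll1, the label of Kmt2a in the table, which also takes up reads of the fusion, was at 1997 to 6372 CPM (counts per 1e6 reads of the library, after the authors' scaling) without doxycycline and at 114 to 144 CPM with it. Id2 was at 25.8 to 51.5 CPM with the control virus and at 952 to 1631 CPM with the Id2 virus. No library had doxycycline with MLL-AF9 left on, so an effect of the drug and an effect of losing MLL-AF9 cannot be told apart. These were bulk samples, in which more cells of a type and more RNA per cell cannot be told apart either.

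The doxycycline libraries address what happens to gene expression once MLL-AF9 is shut off. After 4 days, 9 of the 10 genes rose and none fell (limma on the deposited log2 values, Benjamini-Hochberg adjusted p under 0.05 over all 13406 genes), beside 31.3% of all genes that rose. The exception was Hp. In these 9 genes every doxycycline library was above every untreated library, which held in 28.9% of all genes. Each was also higher in all 4 pairs, as were 35.8% of all genes. The median log2 fold change of the 10 was 2.73, beside -0.03 for all genes. Scaling to library totals without the authors' factors moved the median of all genes to -0.27 and the share of calls that rose from 48.1% to 28.1%, and 8 of the 10 genes still rose. The formyl peptide receptors rose most (26.0-fold for Fpr1 and 13.6-fold for Fpr2), followed by Ltf (11.6-fold), Lcn2 (10.4-fold) and Ngp (8.62-fold), then Padi4 (5.08-fold), Camp (5.02-fold) and Cd177 (3.48-fold), with Chi3l3 (1.81-fold) the least of the 9. The plot of values by library shows all 10 genes.

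**Figure D1:**
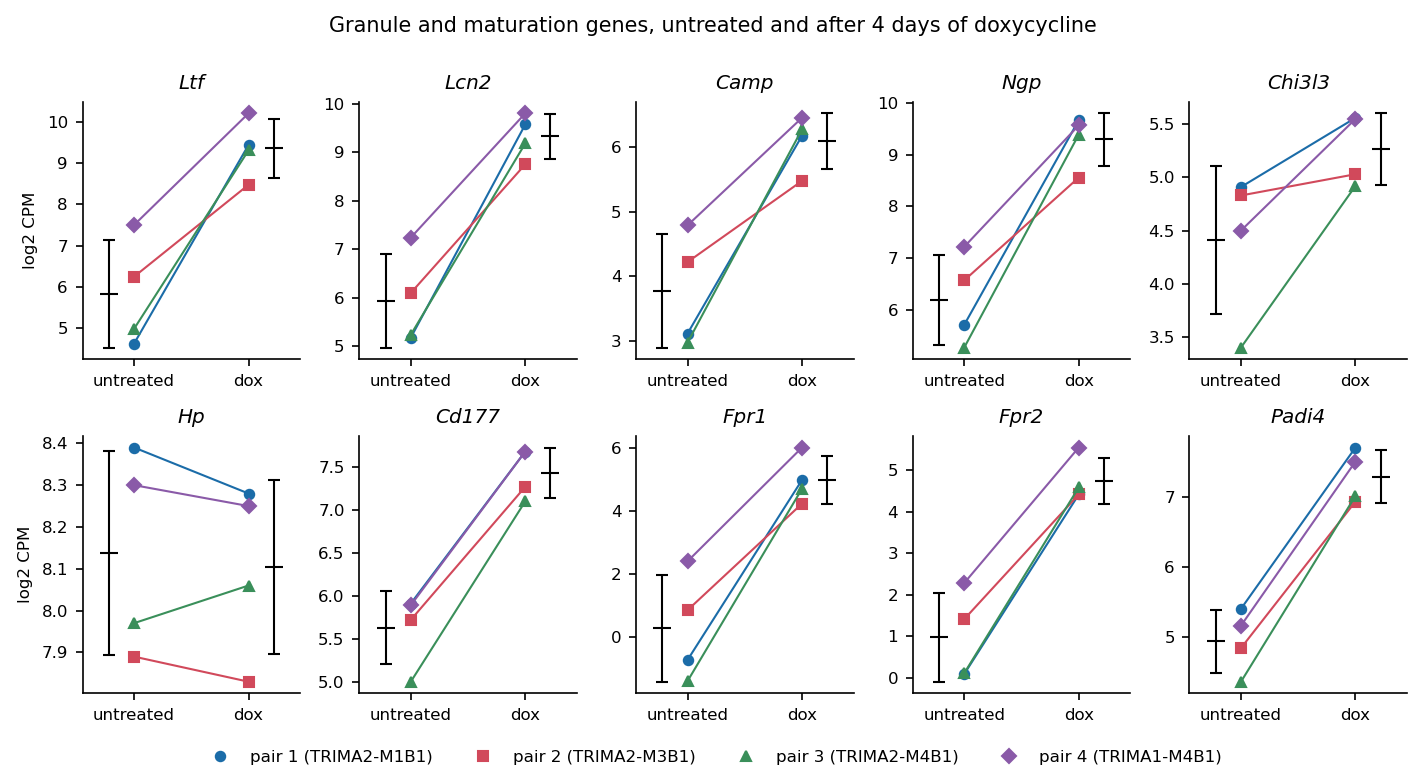
Levels of the 10 genes (log2 CPM) in the 4 untreated and 4 doxycycline libraries, joined by pair label. Black marks are the group means with SD. All lines of the other 9 genes rise, while 3 of the 4 Hp lines fall slightly, and 6 genes (Ltf, Lcn2, Camp, Ngp, Fpr1 and Fpr2) start highest in pair 4 and next highest in pair 2.

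The specific granule genes come first in maturation order. Ltf encodes lactoferrin, an iron-binding protein of specific granules, and stood at 24.4, 75.6, 31.3 and 180 CPM in untreated libraries 1 to 4, against 698, 356, 638 and 1188 CPM in doxycycline libraries 1 to 4. The groups did not overlap, and the untreated libraries spanned 7.40-fold among themselves, with library 4 highest in both groups. The log2 fold change was 3.54 ± 0.60 (SE, n = 4 per group, limma adjusted p = 6.11e-04).

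Lcn2 encodes lipocalin 2, which binds bacterial iron carriers. It was at 36.3, 68.4, 37.9 and 151 CPM without doxycycline and at 759, 431, 580 and 892 CPM with it. The same library, number 4, was highest in both groups, and the groups were far apart. The log2 fold change was 3.38 ± 0.43 (SE, limma adjusted p = 9.17e-05).

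Ngp encodes the neutrophilic granule protein, a relative of the cathelicidins and cystatins. Untreated libraries held 52.4, 94.7, 38.6 and 149 CPM of it, and doxycycline libraries 814, 378, 669 and 762 CPM. Library 2 was the lowest of the doxycycline group and still above every untreated library.

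Camp encodes the precursor of cathelicidin, an antimicrobial peptide of specific granules. Its levels were 8.59, 18.6, 7.81 and 27.7 CPM without doxycycline and 72.3, 44.5, 77.9 and 87.9 CPM with it. Again library 4 was highest in both groups and the groups were apart. The log2 fold changes were 3.11 ± 0.41 for Ngp (SE, limma adjusted p = 1.11e-04) and 2.33 ± 0.40 for Camp (SE, limma adjusted p = 6.15e-04).

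Chi3l3 and Hp encode secreted proteins, and these 2 genes moved least. Chi3l3 encodes a chitinase-like lectin, also called Ym1, made by developing neutrophils and by activated macrophages. It was at 30.1, 28.4, 10.5 and 22.6 CPM without doxycycline and at 47.3, 32.7, 30.3 and 46.7 CPM with it. The lowest doxycycline library (30.3 CPM) was barely above the highest untreated one (30.1 CPM). Its log2 fold change was 0.86 ± 0.31 (SE, limma adjusted p = 0.036), and the call was lost with scaling by library totals (log2 fold change 0.62, adjusted p = 0.0962), without a variance trend (adjusted p = 0.0578), and without any one of doxycycline libraries 1 (adjusted p = 0.0909) and 4 (0.0854), untreated library 4 (0.0559), pair 1 (0.0576) or pair 4 (0.114). With the pair label as a block the call was kept (SE 0.18, limma adjusted p = 0.00295). The near-identical paralog Chi3l4 had no row in this table, so reads shared with it could not be checked here.

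Hp encodes haptoglobin, which binds free haemoglobin and is stored in specific granules. It was already abundant, at 335, 238, 251 and 315 CPM without doxycycline, and stood at 310, 227, 266 and 304 CPM with it. The groups overlapped fully and the order of the libraries (2, 3, 4 and 1 from low to high) was the same in both. The log2 fold change was -0.03 ± 0.13 (SE, limma adjusted p = 0.835), with a 95% interval from -0.33 to 0.26, which leaves room for a change of up to 1.20-fold upward.

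Of the surface protein genes, Fpr1 and Fpr2 had larger fold changes than the specific granule genes and Cd177 had a smaller one. Fpr1 and Fpr2 encode receptors for formylated bacterial peptides that guide neutrophils to infection. Fpr1 was nearly silent without doxycycline, at 14, 41, 7 and 113 reads in libraries 1 to 4 (0.584, 1.78, 0.353 and 5.25 CPM), and reached 31.5, 18.8, 25.9 and 64.2 CPM with it. Fpr2 was at 25, 61, 21 and 104 reads (1.04, 2.64, 1.06 and 4.84 CPM) without doxycycline and at 21.3, 21.2, 23.8 and 46.5 CPM with it. Both genes were highest in library 4 of each group, and neither had overlapping groups. The log2 fold changes were 4.70 ± 0.75 for Fpr1 (SE, limma adjusted p = 4.08e-04) and 3.76 ± 0.49 for Fpr2 (SE, limma adjusted p = 1.04e-04). Without untreated library 4, the highest untreated one, that of Fpr1 was 5.41.

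Cd177 encodes a neutrophil surface glycoprotein anchored by a lipid. It was at 60.2, 52.5, 32.1 and 59.4 CPM without doxycycline and at 205, 154, 137 and 204 CPM with it. Library 3 was lowest and library 1 highest in both groups. The log2 fold change was 1.8 ± 0.21 (SE, limma adjusted p = 5.49e-05).

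Padi4 encodes peptidylarginine deiminase 4, a nuclear enzyme that turns arginine of histones into citrulline and takes part in neutrophil extracellular traps. It was at 42.1, 28.5, 20.6 and 35.9 CPM without doxycycline and at 207, 122, 129 and 181 CPM with it. All 4 doxycycline libraries were well above the untreated ones. The log2 fold change was 2.34 ± 0.24 (SE, limma adjusted p = 2.05e-05), the smallest adjusted p of the 10.

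The pairs did not change alike. In Ltf the folds within pairs 1 to 4 were 28.6, 4.71, 20.4 and 6.59, and in Fpr1 they were 52.2, 10.5, 68.6 and 12.2. Each of Lcn2, Ngp, Camp and Fpr2 likewise had larger folds in pairs 1 and 3 (8.41 to 22.1 over the 4 genes) than in pairs 2 and 4 (2.39 to 9.59). The untreated libraries of pairs 1 and 3 were the 2 lowest for each of these 6 genes. Cd177 and Padi4 rose more evenly, by 2.93-fold to 4.27-fold and by 4.26-fold to 6.28-fold. Chi3l3 ranged from 1.15-fold in pair 2 to 2.88-fold in pair 3.

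**Figure D2:**
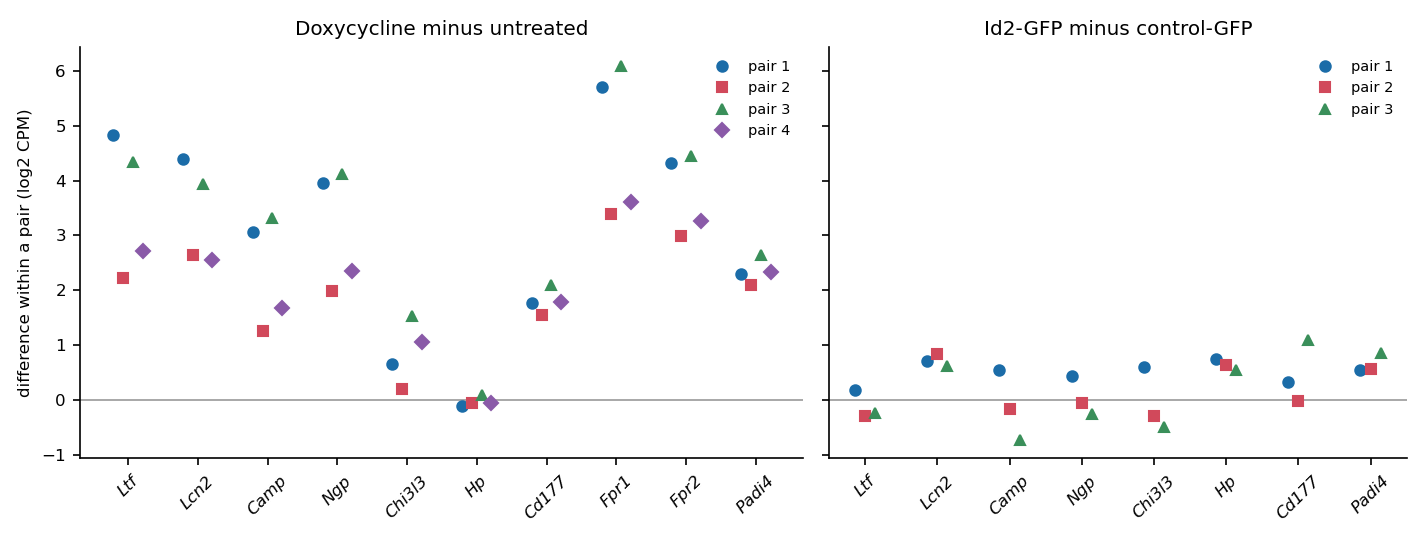
Differences within each pair (log2 CPM) for the 10 genes of the doxycycline table (left) and the 8 of the transduced table (right), one mark per pair. On the left Ltf, Lcn2, Camp, Ngp, Fpr1 and Fpr2 lie higher in pairs 1 and 3 than in pairs 2 and 4, and on the right all marks but that of Cd177 in pair 3 (1.09) lie within 1 of 0.

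The untreated libraries differed from each other more in these genes than in most. Their SD on the log2 scale had a median of 0.88 over the 10 genes and 0.11 over all genes, and in 9 of the 10 it was above the 90th percentile of all genes. Fpr1 spanned 14.9-fold and Ltf 7.40-fold among untreated libraries, Padi4 2.05-fold and Cd177 1.88-fold. Hp spanned 1.41-fold and was the gene below that percentile. Such a spread was not particular to the 10. The neutrophil genes Mmp8 and Mmp9 were at percentiles 99.4 and 98.6 and Mpo at 98.4, but Itgam and Cybb at 57.8 and 75.4. With doxycycline the SD was smaller in all 10 genes, with a median of 0.44, whereas it was smaller in 46.3% of all genes. It also went from 1.23 to 0.62 in Mmp8 and from 0.95 to 0.6 in Mmp9, but from 0.9 to 1.27 in Mpo. The highest untreated library was one of 2. Ltf, Lcn2, Camp, Ngp, Fpr1 and Fpr2 were highest in untreated library 4, and Cd177, Chi3l3, Hp and Padi4 in untreated library 1. Of all genes, 27.9% were highest in untreated library 4 and 24.6% in untreated library 1. With doxycycline 5 genes were highest in library 1 and 5 in library 4, beside 24.7% and 26.4% of all genes, and 8 were lowest in library 2.

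Levels can be compared between genes only per length. In CPM per kb of exon, Hp led in untreated cells at a mean of 177, and its 4 libraries (148 to 208) did not overlap those of Ngp (31.6 to 122, mean 68.4). The next genes, Lcn2 (mean 28.0), Ltf (22.6), Camp (20.7), Cd177 (18.0) and Chi3l3 (14), each overlapped the neighbour in the order. Padi4 (6.57) was above Fpr2 (1.85) and Fpr1 (1.50) with no overlap, and these last 2 overlapped. With doxycycline Ngp led at a mean of 537 CPM per kb, followed by Lcn2 (254), Ltf (209) and Hp (172), and neighbours in this order overlapped. Camp (93.2) and Cd177 (61.6) came next and overlapped each other, and Padi4 (33.0), Fpr1 (26.5), Chi3l3 (24.1) and Fpr2 (21.8) formed the lowest group.

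**Figure D3:**
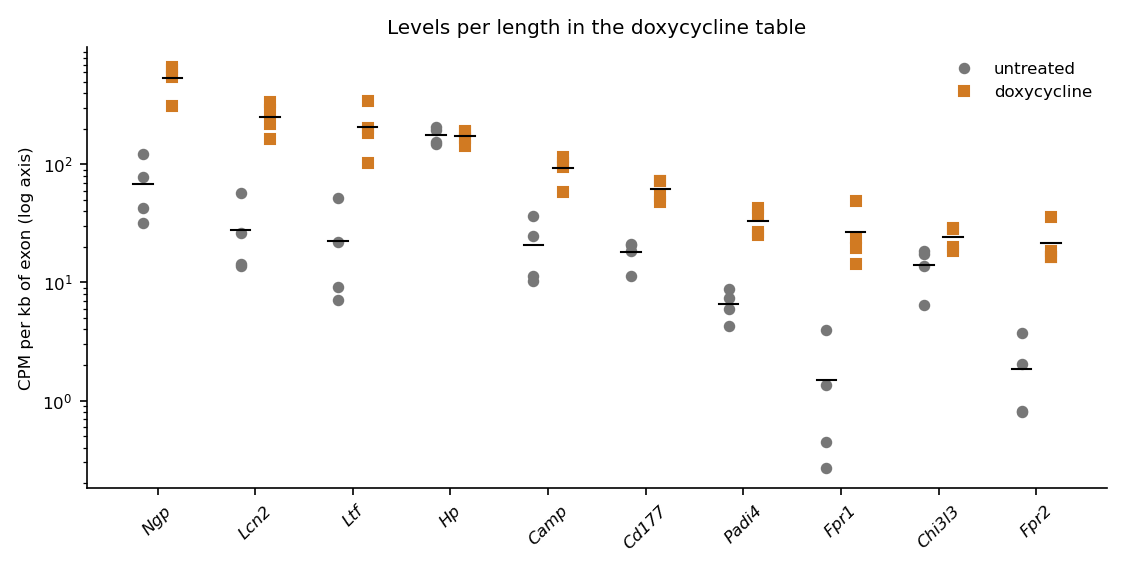
Levels of the 10 genes per kb of exon (CPM per kb, log axis) in the untreated and doxycycline libraries. Each point is a library and each bar a group mean. Ngp rises from a mean of 68.4 to 537 and passes Hp, which has means of 177 and 172.

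Of 16 listed relatives of these genes 5 had a row, of which 4 rose and none fell, beside 31.3% of all genes that rose. With library totals 3 of the relatives rose. Padi2, another peptidylarginine deiminase, was at 123 ± 24.9 CPM (SD, n = 4) without doxycycline and 249 ± 42.5 CPM with it, and Padi3 rose from 1.55 ± 0.258 to 3.35 ± 0.602 CPM. Chi3l1, a chitinase-like relative of Chi3l3, rose by 3.40 ± 0.80 on the log2 scale (SE, limma adjusted p = 0.00436), with untreated libraries at 0.167, 1.43, 0.252 and 1.91 CPM and doxycycline libraries at 3.72, 4.33, 6.02 and 18.4 CPM. Its untreated libraries were in the same order as those of Ltf. Chid1 rose by 0.39 ± 0.08 (SE), and did not pass once scaled by library totals (adjusted p = 0.106), and Trf, the transferrin gene related to Ltf, was at 5.76 ± 1.49 and 6.22 ± 2.07 CPM (limma adjusted p = 0.814).

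Most other neutrophil genes rose as well. Of 48 listed, 44 had a row. Of these 37 rose and 2 fell, beside 4198 and 4535 of all 13406 genes, and the median log2 fold change was 2.03. The list was not limited to genes absent from monocytes and macrophages, whose own markers had a median of 2.06. The listed neutrophil genes with the smallest p rose. They included Cybb, a subunit of the phagocyte oxidase (228 ± 33.0 to 1153 ± 80.8 CPM), Clec4d, a C-type lectin receptor (36.4 ± 9.78 to 423 ± 65.2 CPM), the integrin chains Itgam (1003 ± 95.6 to 2843 ± 307 CPM) and Itgb2 (669 ± 109 to 1830 ± 127 CPM), annexin A1, from Anxa1 (179 ± 30.7 to 590 ± 84.9 CPM), the surface protease Adam8 (289 ± 90 to 1602 ± 233 CPM) and Csf3r, which encodes the G-CSF receptor (64.9 ± 9.03 to 203 ± 37.0 CPM). Those that fell were Slpi, a protease inhibitor (1827 ± 368 to 1088 ± 169 CPM), and Cd24a, a surface glycoprotein (561 ± 112 to 378 ± 53.2 CPM). The neutrophil surface marker Ly6g, chosen after its values were seen, was at 0.125 to 0.744 CPM without doxycycline and at 5.12 to 8.67 CPM with it. Untreated library 4 was the highest for 31 of the 44 genes, beside 27.9% of all genes.

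Most genes listed with the earlier, primary granules went the opposite way. The list is wider than the granule proteins themselves. Of 8 measured, none rose and 6 fell (Ctsg, Elane, Prtn3, Ms4a3, Cst7 and Serpinb1a), beside 4535 of all 13406 genes that fell. Mpo and Prss57 (limma adjusted p = 0.169) did not pass. The median log2 fold change of the 8 was -1.28. The proteases Ctsg, Elane and Prtn3 fell by 2.43 ± 0.19, 1.97 ± 0.19 and 1.35 ± 0.14 on the log2 scale (SE, limma adjusted p = 4.34e-06, 1.51e-05 and 2.91e-05). Ctsg was at 1206 ± 186 CPM (SD, n = 4) without doxycycline and 228 ± 60.9 CPM with it. Mpo, the myeloperoxidase gene, was at 156, 143, 539 and 169 CPM without doxycycline and at 44.3, 50.2, 299 and 109 CPM with it. Its groups overlapped because library 3 was highest in both, and its log2 fold change was -1.20 ± 0.63 (SE, limma adjusted p = 0.119). With the pair label as a block the Mpo difference passed (limma adjusted p = 3.75e-04).

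Regulators of granulocyte development moved both ways, in shares near those of all genes. Of 18, 6 rose and 6 fell, beside 4198 that rose and 4535 that fell of all 13406 genes. With library totals 5 of the 18 rose and 8 fell, beside 2702 and 6912 of all genes. Cebpb and Cebpd, C/EBP factors of later myeloid cells, rose by 0.95 ± 0.12 and 0.59 ± 0.07 on the log2 scale (SE, limma adjusted p = 9.04e-05 and 6.70e-05), and Cebpa, the C/EBP factor of earlier granulocyte progenitors, fell by 0.40 ± 0.06 (SE, adjusted p = 1.69e-04). Cebpe was at 65.0, 35.8, 44.8 and 66.4 CPM without doxycycline and at 79.0, 45.5, 65.8 and 62.5 CPM with it. These groups overlapped (log2 fold change 0.28 ± 0.22, SE, limma adjusted p = 0.30), while the fit with the pair label as a block passed (limma adjusted p = 0.0271). Spi1, listed as Sfpi1, encodes PU.1 and rose by 0.54 ± 0.05 (SE, adjusted p = 1.64e-05), and Gfi1, a repressor needed for neutrophil formation, fell by 1.02 ± 0.22 (SE, adjusted p = 0.00245). Irf8, a factor of the monocyte branch, passed with an adjusted p of 0.046, which was 0.424 with library totals and 0.164 after quantile normalization. Klf5 was at 2.36 ± 0.434 and 2.36 ± 0.931 CPM (SD).

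Monocyte and macrophage markers moved with these genes. Of 19 with a row 17 rose and none fell. Their summed level was 1208 to 1586 CPM per library without doxycycline and 6393 to 7520 CPM with it, led by Gpnmb (212 to 2840 CPM), Csf1r (222 to 917 CPM) and Cd68 (183 to 908 CPM, group means). The summed level of the 10 late granule and maturation genes was 431 to 951 CPM and 1785 to 3777 CPM. The part of monocytes and macrophages in the result was not tested. Eosinophil, basophil and mast cell markers had 6 rows of 17, none of which rose and 4 of which fell, beside 4535 of all 13406 genes that fell. They went from a summed 297 to 455 CPM to 204 to 339 CPM, and Epx and Siglecf had no row. Their leading genes were Cpa3 (153 to 89.6 CPM), Gata2 (155 to 86.5 CPM) and Hdc (32.5 to 45.7 CPM, adjusted p = 0.259). Erythroid and platelet markers had 3 rows of 12, with no globin row, summing to 22.1 to 47.4 CPM without and 6.02 to 13.1 CPM with doxycycline. Of these Itga2b (30.0 to 6.49 CPM) and Gp9 (1.63 to 0.0879 CPM) fell and Pf4 (1.48 to 2.79 CPM) rose. Lymphoid markers had 3 rows of 14, with none for Cd3e or Cd79a, and summed to 276 to 474 and 257 to 344 CPM. They were Ighm (328 to 272 CPM, adjusted p = 0.239), Cd79b (18.4 to 14.8 CPM, adjusted p = 0.421) and Nkg7 (1.12 to 0.376 CPM, adjusted p = 0.0131).

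**Figure D4:**
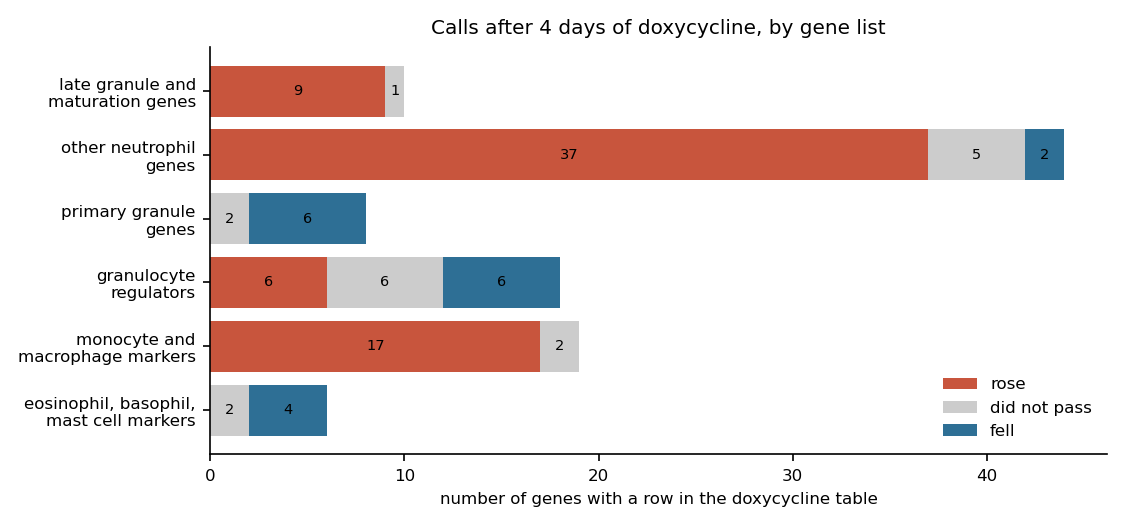
Number of genes of each list with a row in the doxycycline table that rose, did not pass or fell (limma, adjusted p under 0.05). Red fills 9 of 10 late granule and maturation genes, 37 of 44 other neutrophil genes and 17 of 19 monocyte and macrophage markers, and blue 6 of 8 primary granule genes.

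The other comparison asked which genes changed when Id2 was raised with MLL-AF9 still present. Id2 itself is among the genes that rose with doxycycline, from 27.7 ± 5.31 to 86.4 ± 5.93 CPM (SD, n = 4), and the virus took it from 36.1 ± 13.6 to 1283 ± 340 CPM (SD, n = 3). None of the 8 late granule and maturation genes with a row passed, in a comparison where limma called 0.0137% of all genes, namely Id2 and the predicted gene Gm6175, and 357 genes had an unadjusted p under 0.05. With the replicate number as a block 0.24% of all genes passed and again none of the 8. The groups of all 8 genes overlapped, as did those of all but 6.95% of genes. The median log2 fold change of the 8 was 0.25, beside -0.04 for all genes.

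Lcn2, Hp and Padi4 were higher in Id2-GFP cells in each of the 3 pairs, which held for 12.8% of all genes. Lcn2 was at 9.87, 18.5 and 8.63 CPM in control-GFP libraries 1 to 3 and at 16.0, 33.0 and 13.2 CPM in Id2-GFP libraries 1 to 3. Hp was at 164, 248 and 125 CPM and at 276, 388 and 183 CPM. Padi4 was at 9.28, 30.7 and 6.55 CPM and at 13.6, 45.5 and 11.9 CPM. In all 3 genes the order of the libraries was 3, 1 and 2 from low to high in both groups, and control libraries alone spanned 2.15-fold, 1.99-fold and 4.69-fold, more than the groups differed (1.64-fold, 1.57-fold and 1.58-fold). The log2 fold changes were 0.71 ± 0.42, 0.65 ± 0.34 and 0.66 ± 0.69 (SE, n = 3 per group, limma adjusted p = 0.998 for each). Without the block the 95% intervals of the folds ran from 0.831 to 3.24 for Lcn2, from 0.904 to 2.72 for Hp and from 0.523 to 4.78 for Padi4. With the replicate block they ran from 1.19 to 2.25, from 1.18 to 2.09 and from 1.15 to 2.18, intervals for single genes that are not adjusted for the number of genes tested. The limma adjusted p-values over all genes were then 0.366, 0.364 and 0.46, so none of the 3 passed. The Padi4 difference was 0.05 on the log2 scale without Id2-GFP library 2 and 1.32 without control-GFP library 2.

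Cd177 was at 14.9, 40.1 and 6.25 CPM with the control virus and at 18.6, 39.3 and 13.4 CPM with the Id2 virus. Replicate 2 stood above the other 2 in both groups, and the log2 fold change was 0.46 ± 0.68 (SE, adjusted p = 0.998), which was 1.15 without control-GFP library 2 and -0.19 without control-GFP library 3. Cd177 differed by 0.32, -0.03 and 1.09 on the log2 scale in pairs 1 to 3. Ltf, Camp, Ngp and Chi3l3 also differed in sign between pairs. Ltf was at 4.93, 6.43 and 5.65 CPM with the control virus and at 5.54, 5.23 and 4.79 CPM with the Id2 virus, and its 95% interval of the fold was 0.622 to 1.36. Camp was at 5.07, 8.84 and 8.56 CPM and at 7.37, 7.88 and 5.14 CPM. Ngp was at 13.9, 24.9 and 21.7 CPM and at 18.8, 24.0 and 18.0 CPM. In Ltf, Camp and Ngp pair 1 was higher with Id2 and pairs 2 and 3 were lower. Chi3l3, at 23.7, 39.0 and 39.1 CPM and at 35.9, 31.8 and 27.7 CPM, had the same pattern, and its near-identical paralog Chi3l4, with which reads may be shared, was at 3.56 ± 0.784 and 3.01 ± 0.855 CPM (SD). Whether the response of a gene differs between the doxycycline and Id2 comparisons was not tested, because the tables were normalized apart.

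**Figure D5:**
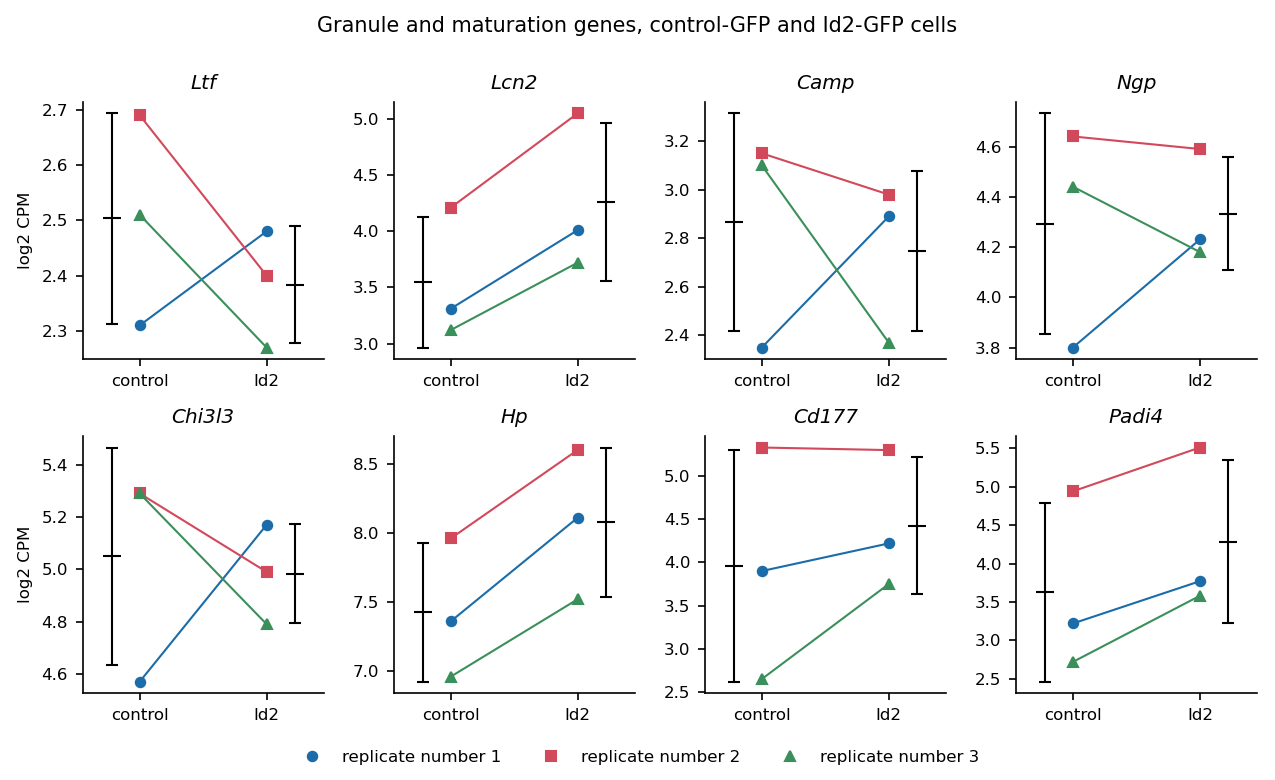
Levels of the 8 genes with a row in the transduced table (log2 CPM) in 3 control-GFP and 3 Id2-GFP libraries, joined by replicate number. Black marks are the group means with SD. Lines of Lcn2, Hp and Padi4 all rise, the Cd177 line of replicate 2 falls slightly, lines of Ltf, Camp, Ngp and Chi3l3 cross, and the groups of every gene overlap.

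No listed neutrophil, primary granule or regulator gene passed in this comparison without the block. With the replicate block 1 gene of each list passed. Mmp8, a collagenase of specific granules, was at 3.03, 18.9 and 6.77 CPM with the control virus and at 12.6, 72.4 and 25.5 CPM with the Id2 virus, a log2 fold change of 1.96 ± 0.20 (SE) in the blocked fit (limma adjusted p = 0.0104, 0.998 without the block). Mpo was at 138, 66.6 and 190 CPM and at 57.6, 11.4 and 72.1 CPM (blocked adjusted p = 0.0359). Gfi1b, named after its values were seen, encodes a repressor needed for erythroid and megakaryocyte development. It was at 55.9, 59.6 and 108 CPM and at 20.1, 23.9 and 21.1 CPM (blocked adjusted p = 0.0311). In the doxycycline set Gfi1b fell from 48.6 ± 4.34 to 2.18 ± 0.798 CPM (SD, n = 4, limma adjusted p = 7.12e-07). Of the other neutrophil genes with the smallest p, Mmp9 was at 4.73 ± 1.60 and 10.4 ± 5.05 CPM, Slpi at 1009 ± 409 and 431 ± 278 CPM and Anxa1 at 152 ± 34.4 and 237 ± 41.1 CPM (SD, control-GFP first), with blocked adjusted p-values of 0.214, 0.08 and 0.338. Ltb4r1, Cybb and 1100001G20Rik had blocked adjusted p-values of 0.691 to 0.906. Cebpe was at 28.6, 60.3 and 6.77 CPM and at 23.2, 46.6 and 8.61 CPM, in the same order of libraries as Lcn2, Hp, Cd177 and Padi4. Cebpa was at 143, 148 and 157 CPM and at 101, 100 and 83.3 CPM, groups that did not overlap (log2 fold change -0.66 ± 0.16, SE, adjusted p = 0.998, blocked 0.352). The monocyte and macrophage markers summed to 967 to 1181 CPM with the control virus and 978 to 1514 CPM with the Id2 virus, and none of 15 passed without the block. With it Cx3cr1, a chemokine receptor named after its values were seen, fell by 1.39 ± 0.20 on the log2 scale (SE, limma adjusted p = 0.0359).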

How the data were processed

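The authors deposited log2 CPM values, whose offset is 0.5 reads and whose library sizes were scaled. This was read from the numbers, 100% of which gave whole reads within 0.01. Alignment and counting tools named in the submitters' processing notes are TopHat2 and HTSeq, beside CASAVA 1.8.2 and limma, with the build mm10 and no step stated for any. The sources used here state no strand. After 13 repeats were dropped from 13419 entries, 13406 genes were left in the doxycycline table. Both tables had been scaled separately, so tests were run within each. CPM values are the recovered reads over the scaled library size, and fold changes are on the deposited log2 scale, whose offset understates changes of low genes. 

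Limma 3.58.1 in R 4.3.3 (lmFit, and eBayes with a trend, two-sided) was fitted to all genes, with Benjamini-Hochberg adjustment and a threshold of 0.05. It was tested on simulated data. Samples were grouped by the labels. The block alternative used the pair label or replicate number. Same-numbered libraries deviated together (correlations of deviations from group means over genes of 0.454 to 0.552 in 4 doxycycline pairs and 0.472 to 0.581 in 3 Id2 pairs), so the numbers pair the samples. The labels do not state whether a group's libraries are from different animals. If they are not, p-values reflect only the variation among these samples, technical variation included. Other alternatives were library totals, quantile normalization, no trend, a mean log2 value of at least 2, an offset of 2 reads, and leaving out each library or pair.

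The genes and lists were chosen with earlier results of these data known. Named genes are the 10, their relatives, 8 regulators, 4 primary granule genes, up to 8 other neutrophil genes with the smallest p and up to 3 markers per cell type with the highest level. A gene that this rule would name is not reported here. Annotation was GENCODE M21. Upstream sequences and gene starts are from RefSeq on GRCm38.p6. Plots and tables used Python 3.11.15, pandas 2.3.3 and matplotlib 3.10.9.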

Additional observations from a re-analysis of the deposited data

Results flagged for a closer look

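Fpr2 in doxycycline library 4 stood far from the other 3 libraries of its group, at a log2 CPM of 5.54 against 4.41 to 4.58, a gap of 0.85 of the group's whole range. Such a gap arises by chance in about 1 in 20 groups of 4, and 1 of the 20 groups of 4 libraries examined for these genes showed it, about the number chance would give. Pair 4 is the pair whose label begins with TRIMA1, and the other 3 begin with TRIMA2. The same library was also the highest of its group for Ltf, Lcn2, Camp and Fpr1, and the untreated library of that pair was the highest for Fpr2.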

How the results depend on the processing

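All 9 genes that rose with doxycycline kept their direction under every alternative, and 8 or 9 of them passed. Chi3l3 was the one that could fail. Hp passed in neither other scaling. Its log2 fold change was -0.27 with library totals (limma adjusted p = 0.0615) and -0.16 after quantile normalization (adjusted p = 0.267). The medians of all genes were then -0.27 and -0.10. Without single libraries or pairs, Hp ranged from -0.12 to 0.057 on the log2 scale in the doxycycline comparison, and in the Id2 comparison Ngp ranged from -0.21 to 0.21, Camp from -0.45 to 0.19, Chi3l3 from -0.40 to 0.15 and Cd177 from -0.19 to 1.15, so the sign of these 5 differences was not stable. Padi4 in the Id2 comparison kept its sign but ranged from 0.05 to 1.32, and Fpr1 in the doxycycline comparison ranged from 4.14 to 5.41. With the replicate block 35 genes were called in the Id2 comparison in place of 2, and with the filter on low values 1. Without single libraries or pairs 0 to 3 were called, the count being 0 without Id2-GFP replicate 1, without pair 1 and without pair 2. The cause was not tested. In the doxycycline comparison the block moved the count of all genes called from 8733 to 9326 and left 9 of the 10 genes called, and it changed no call among the 10 in either comparison. Depth limits Fpr1 most, whose lowest library held 7 reads.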

Other observations

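Mll1 was highest in the untreated libraries in which 6 of the genes were lowest. It stood at 6372, 1997, 4434 and 2807 CPM in untreated libraries 1 to 4, and libraries 1 and 3 were those in which Ltf, Lcn2, Camp, Ngp, Fpr1 and Fpr2 were lowest. In the transduced set Mll1 was at 2531, 6366 and 1234 CPM with the control virus and at 2402, 4787 and 2133 CPM with the Id2 virus, and there replicate 2, the highest for Mll1, was also the highest for 7 of 8 genes with the control virus and for 6 of 8 with the Id2 virus. Of all genes, 33.5% were highest in replicate 2 with the control virus and 32.3% with the Id2 virus. No relation was tested over so few libraries.

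Some of the genes stood at other levels in the transduced set than in untreated cells of the doxycycline set, although both kept MLL-AF9 on. The tables were normalized apart, so these are values only. Ltf was at 24.4 to 180 CPM in untreated and 4.93 to 6.43 CPM in control-GFP libraries, Lcn2 at 36.3 to 151 and 8.63 to 18.5 CPM, and Ngp at 38.6 to 149 and 13.9 to 24.9 CPM. Hp, at 238 to 335 and 125 to 248 CPM, and Chi3l3, at 10.5 to 30.1 and 23.7 to 39.1 CPM, had overlapping ranges in the 2 sets. So did Camp, Cd177 and Padi4.

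The order of Cebpe among untreated libraries (66.4, 65.0, 44.8 and 35.8 CPM in libraries 4, 1, 3 and 2) had libraries 1 and 4 above 2 and 3, as did Hp, Padi4 and Cd177, and not Ltf, Lcn2, Camp or Ngp, whose highest were libraries 4 and 2.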
